A study of Arabidopsis thaliana with 434 samples.

Results

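The line anac090, an Arabidopsis thaliana line with a T-DNA insertion in the gene for the NAC transcription factor ANAC090 (locus AT5G22380), was compared with its wild-type parent in leaves of 4 ages. Its samples were chosen by their titles, in which age and genotype are followed by a letter with a number: 8 of the 434 samples carry anac090, namely C1 and C2 at 14, 18, 22 and 26 d. They were set against the 8 wild-type samples of ecotype Columbia (Col) with the same letter, C1 and C2 at each age. All 34 wild-type samples (10 at 14 d, then 8 per age) served as a check, and so did the 56 samples of the 7 other insertion lines of letter C. In the whole study, 49 NAC genes and 4 reference genes were counted with the NanoString nCounter, which counts labelled probes bound to RNA without amplification, in wild type and 49 insertion lines. The lines came from public T-DNA collections in the Columbia background, and where within ANAC090 the insertion lies was not stated in the labels. The labels do not say what the letters stand for, nor whether C1 and C2 came from separate plants. The p-values therefore rest only on the spread between samples of the same group, estimated from all 434 samples, and that spread may be technical.

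NAC proteins are plant-specific transcription factors with a conserved DNA-binding domain, and many of them change in level as a leaf ages. Some promote leaf senescence, the ordered breakdown of an old leaf, among them ANAC092 (ORE1), ANAC029 (NAP) and ANAC016. Others delay it, such as ANAC042 (JUNGBRUNNEN1). ANAC090 has been described, together with ANAC017 and ANAC082, as a negative regulator of leaf senescence, and ANAC061 is its close relative in the family.

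Values per sample are normalised counts, that is, raw counts over the sample's own mean of the 4 reference genes, scaled back by the average of such means over all samples. A change is a log2 fold change, anac090 over wild type, and a gene was called at an adjusted p under 0.05. Total raw counts ran from 110689 to 428986 in wild type of letter C and from 67796 to 421153 in anac090, whose 18 d C1 sample was the shallowest of these 16. The negative control probes averaged 2.13 to 7.13 counts in the samples of anac090 and 3.38 to 7.25 in those of wild type. Besides NAC genes of the xylem and phloem, the panel held no marker of a cell type, so the tissue label could not be checked against defining markers. None of the 221 pairs of samples of 1 group was identical or agreed within sampling noise.

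ANAC090 itself was low in anac090 from 18 d on, while at 14 d the line was not told apart from wild type of its letter. At 14 d it had 56.3 and 46.5 normalised counts in anac090 and 85.9 and 48.2 in wild type. At 18 d the values were 36.9 and 54.9 against 194 and 125. At 22 d they were 46.8 and 41.6 against 364 and 293. The samples of anac090 kept to a narrow band at every age, whereas wild type was higher in the older leaves.

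At 26 d ANAC090 had 53.2 and 33.4 normalised counts in anac090 against 117 and 345 in wild type. Line and wild type thus overlapped at 14 d and not at the 3 later ages, and 7 of the 8 samples lay below every wild-type sample of their age, whatever its letter. With raw counts summed per group and scaled by the summed reference means, ANAC090 in the line was at 78.8% of wild type at 14 d. The exact 95% Poisson interval, counting error only, was 62.7% to 98.7%. The share was 34.2% at 18 d (25.3% to 45.8%), 13.2% at 22 d (10.8% to 16.1%) and 19.2% at 26 d (15.1% to 24.2%). With edgeR's quasi-likelihood test and p-values adjusted by Benjamini-Hochberg across all targeted genes, the change was -0.38 at 14 d (SE 0.66, adjusted p = 0.626), -1.73 at 18 d (SE 0.70, adjusted p = 0.026), -2.89 at 22 d (SE 0.65, adjusted p = 8.4e-05) and -2.42 at 26 d (SE 0.66, adjusted p = 0.0011). Over the 4 ages ANAC090 fell by 1.86 (SE 0.33, adjusted p = 2.3e-07). In these whole leaves, fewer cells of a type and less RNA per cell cannot be told apart.

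The call at 14 d depended on the wild-type samples it was set against. The 2 wild-type samples of letter C lay low in the range of all wild type at 14 d, which ran from 48.2 to 185 with a median of 118. Against all wild type of 14 d the change in ANAC090 was -1.21 and was called (adjusted p = 0.048 in the same test). Without wild type C1 of 14 d it was 0.09. At 18 d ANAC090 was not called without anac090 C1, without anac090 C2 or without wild type C1 (-1.53, -2.10 and -1.39), and at 26 d it was not called without wild type C2 (-1.44). The difference between the mean change at 22 and 26 d and that at 14 and 18 d was -1.60 (SE 0.67, adjusted p = 0.059) and missed the threshold.

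Over the 4 ages, 11 members of the NAC panel rose in anac090 and 1 fell. The largest rises were those of AT3G12910, ANAC042, ANAC016 and ANAC061, which were 3.54 to 5.83 times the wild-type level, followed by ANAC047 and ANAC100. ANAC053, ANAC081, ANAC001, ANAC041 and ANAC021 were at 1.45 to 1.96 times wild type, and ANAC045 fell. Of the 46 genes tested besides ANAC090, 11 were called higher (23.9%) and 1 lower (2.17%) by edgeR's quasi-likelihood test, each age being compared within itself and the 4 changes averaged. The background over all 49 lines was 22 calls among 2256 pairs of line and gene (0.975%), so 12 of the 22 stood in anac090. The other 48 lines held 10 calls in 8 lines, with at most 2 in any one of them. ANAC076 and ANAC086 were too close to the negative probes to be tested.

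**Figure D1:**
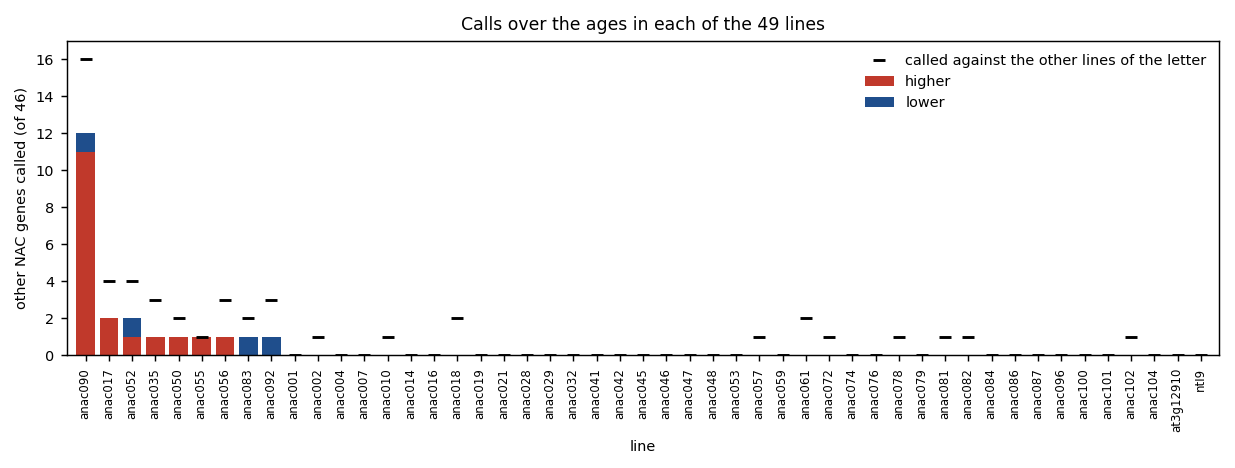
Number of other NAC genes called over the 4 ages (y axis, of 46 tested per line) in each of the 49 insertion lines (x axis), with higher and lower calls stacked as bars and, as dashes, the calls against the other lines of the same letter. The bar of anac090 reaches 12, against at most 2 in any other line, and its dash 16, against at most 4.

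The scale bears on these counts. UBQ10 made up 80.6% of the reference counts, so the reference mean follows UBQ10, and ACT2 and TUB2 did not keep pace with it in older leaves of anac090. In all wild type TUB2 was lower in older leaves too (median 6848 at 14 d and 4268 at 26 d), ACT2 less so (13826 and 12932). ACT2 had 9471 and 7521 normalised counts in anac090 at 22 d against 12608 and 13713 in wild type C1 and C2, and TUB2 had 2839 and 2694 against 5896 and 4119. At 26 d ACT2 had 10601 and 8954 against 13618 and 15553. Both genes lay below every wild-type sample at 22 d and at 26 d, while at 14 d anac090 overlapped wild type of its letter in both. At 18 d ACT2 overlapped wild type of letter C, but TUB2 was already below it (5337 and 4088 against 6984 and 6070). ACT7 overlapped wild type of letter C at 22 d (13193 and 10289 against 14652 and 10828) and at 26 d (14386 and 12347 against 13954 and 16117).

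The median change of the 46 genes over the ages was 0.24 on the main scale. It was 0.46 with the geometric mean of the references. With edgeR's TMM scaling, taken from the tested NAC genes and the reference genes together, it was -0.03. The split of calls moved with it: 19 genes were higher and none lower with the geometric mean, 7 higher and 2 lower with TMM, and 8 higher and 3 lower with DESeq2. Each change below is best read against that median. AT3G12910, ANAC042, ANAC016, ANAC061, ANAC047 and ANAC100, 6 of the 12 genes, were called in the same direction under every alternative that tested them and without each of the 16 samples in turn. The other 6 lost the call under at least 1 of these.

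**Figure D2:**
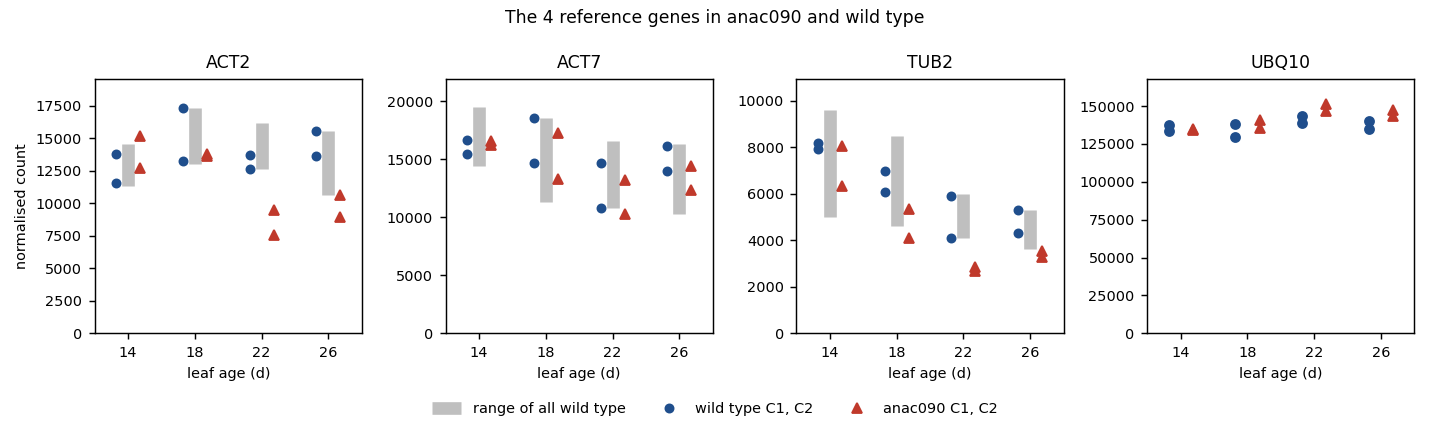
Normalised counts (y axis, from 0) of ACT2, ACT7, TUB2 and UBQ10, the references, by leaf age (x axis, d) in the samples of anac090 (triangles) and of wild type of letter C (circles), with the range of all wild type as grey bars for the first 3 genes. ACT2 and TUB2 of anac090 lie below the grey bars at 22 and 26 d.

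ANAC061, the close relative of ANAC090, was higher in anac090 at every age. At 14 d it had 120.0 and 95.2 normalised counts in anac090 against 20.6 and 9.64 in wild type. At 18 d the values were 181 and 234 against 59.4 and 35.7, and at 22 d 357 and 259 against 106 and 153. At 26 d they were 304 and 150.1 against 60.6 and 161. The groups overlapped at 26 d alone, and 6 of the 8 samples of anac090 lay above every wild-type sample of their age.

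Over the ages ANAC061 rose by 1.82 (SE 0.41, adjusted p = 0.0026 in edgeR's quasi-likelihood test). The change was 2.84 at 14 d, 2.16 at 18 d, 1.25 at 22 d and 1.04 at 26 d, and no single age passed the test (adjusted p = 0.071 at 14 d). The decline with age, -1.35 from the earlier to the later pair of ages, was not called either (adjusted p = 0.999). In the insertion line anac061, ANAC090 in turn changed by -0.10 over the ages (SE 0.32, adjusted p = 0.992).

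The rises included ANAC042, ANAC016 and ANAC053, which have known roles in leaf senescence but not in the same direction. ANAC042 encodes JUNGBRUNNEN1, which delays senescence and raises tolerance to hydrogen peroxide. It had 379.8 and 220.4 normalised counts in anac090 against 53.2 and 55.8 in wild type at 14 d, and 605 and 975 against 149 and 98.8 at 18 d. It reached 1910.4 and 1598 against 359 and 593 at 22 d, and at 26 d 1191 and 757 against 461 and 524. All 8 samples of anac090 lay above both wild-type samples of their letter, and 6 above every wild-type sample of their age. The rise over the ages was 2.00 (SE 0.34, adjusted p = 8.4e-06 in edgeR's quasi-likelihood test).

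ANAC016 encodes a protein with a membrane anchor that promotes chlorophyll breakdown. It had 308 and 124 normalised counts in anac090 against 48.6 and 52.3 in wild type at 14 d, and 465 and 607 against 101 and 72.6 at 18 d. It stood at 1036 and 988 against 281 and 315 at 22 d, and at 26 d 999 and 812 against 364 and 444. No sample of anac090 overlapped wild type of its letter, and 7 of 8 exceeded every wild-type sample. ANAC016 had the smallest adjusted p over the ages, with a rise of 1.92 (SE 0.24, adjusted p = 3.2e-10 in edgeR's quasi-likelihood test).

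ANAC053, also called NTL4, is a membrane-tethered relative that promotes production of reactive oxygen species. It had 372 and 265 normalised counts in anac090 against 137 and 135 in wild type at 14 d, and 417 and 505 against 267 and 177 at 18 d. At 22 d the values were 804 and 855 against 437 and 459, and at 26 d 711 and 842 against 419.5 and 536. All 8 samples lay above wild type of letter C, and 5 above all wild type. The rise was 0.97 (SE 0.24, adjusted p = 0.0090 in edgeR's quasi-likelihood test), and the call was lost with TMM scaling, with limma on the authors' log2 values, and without wild type C2 of 18 d.

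**Figure D3:**
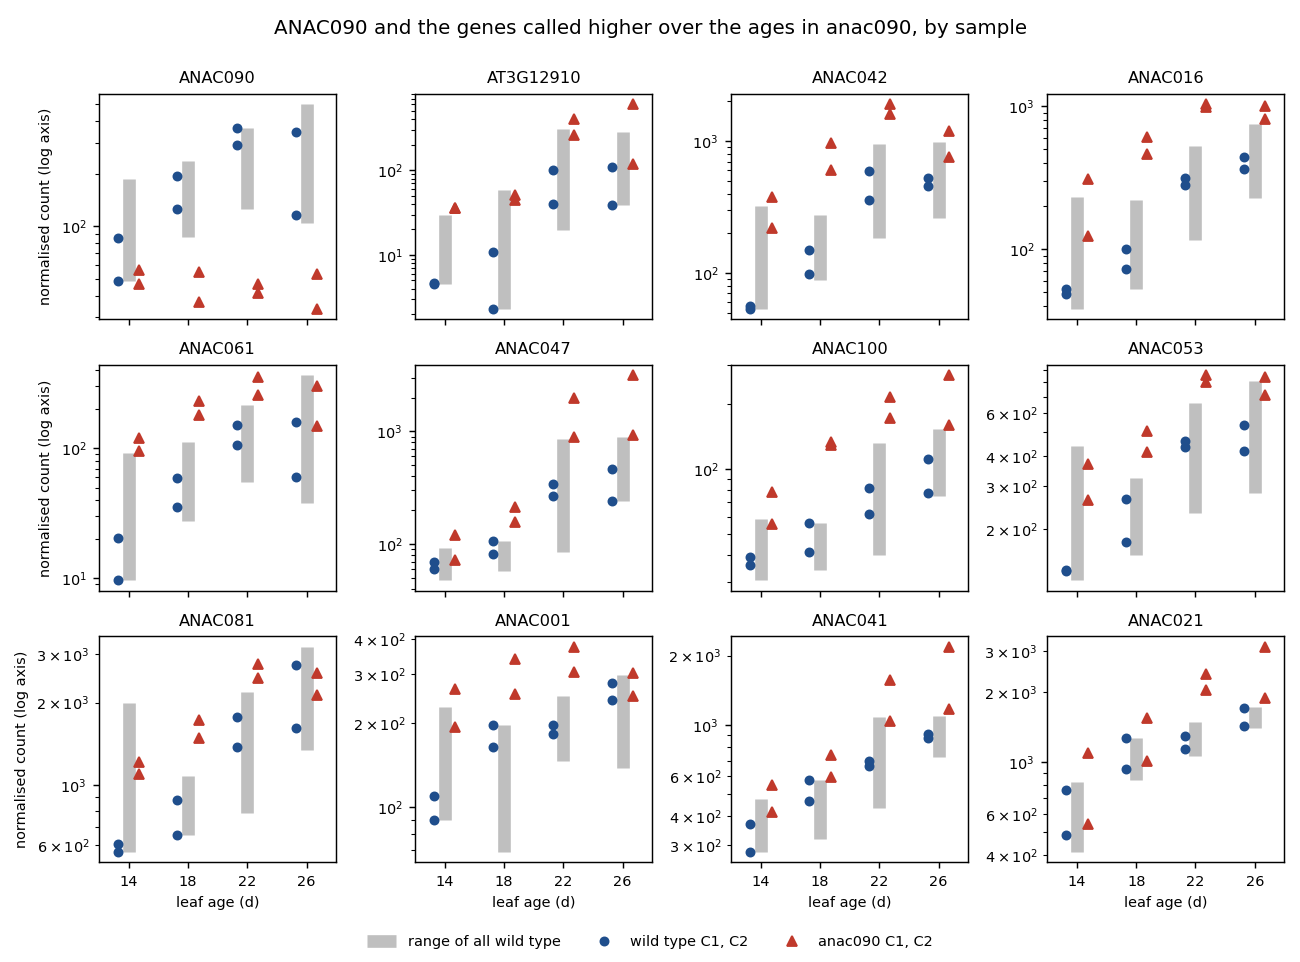
Normalised counts (y axis, log scale) by leaf age (x axis, d) of ANAC090 and of the 11 genes called higher over the ages, with anac090 C1 and C2 as triangles, wild type C1 and C2 as circles and the range of all wild type as grey bars. ANAC090 of the line stays between 33.4 and 56.3 at all ages, and in ANAC042, ANAC016, ANAC047, ANAC100, ANAC053, ANAC041 and AT3G12910 each triangle stands above both circles of its age.

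AT3G12910, a NAC gene listed by its locus alone, had the largest change and, of the 11 genes called higher, the lowest mean raw count. In anac090 it had 35.6 and 36.0 normalised counts at 14 d and 44.3 and 50.7 at 18 d, against 4.66 and 4.57 and 2.28 and 10.7 in wild type of letter C. At 22 d the values were 259.7 and 405 against 40.4 and 100.1, and at 26 d 119.8 and 608 against 38.9 and 108. No sample overlapped wild type of letter C, but 4 of the 8 lay within the range of all wild type, which reached 58.9 at 18 d. The rise was 2.54 (SE 0.55, adjusted p = 9.2e-04 in edgeR's quasi-likelihood test), and 1.52 against all wild type. Wild-type raw counts were 1 to 9 at 14 and 18 d, near the negative probes, so background limits how well the size of this rise is known.

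ANAC047, known as SPEEDY HYPONASTIC GROWTH for its part in petiole movement under waterlogging, rose as well. It had 121 and 72.7 normalised counts in anac090 against 69.2 and 60.4 in wild type at 14 d, and 159 and 213 against 107 and 82.1 at 18 d. In older leaves it had 888 and 1975 against 344 and 269 at 22 d, and at 26 d 923 and 3143 against 240.1 and 463. All 8 samples exceeded wild type of letter C, and the C2 samples of 22 and 26 d stood far above the C1 samples. The rise over the ages was 1.58 (SE 0.29, adjusted p = 8.4e-05 in edgeR's quasi-likelihood test). Its change was 1.59 larger at the later than at the earlier ages, which was not called (SE 0.59, adjusted p = 0.999).

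ANAC100 belongs to the clade of ANAC092 and is, like ANAC021 (NAC1), a target of the microRNA miR164. It had 77.8 and 55.5 normalised counts in anac090 against 35.9 and 39.1 in wild type at 14 d, and 129 and 133 against 41.1 and 56.0 at 18 d. At 22 d the values were 172 and 215 against 81.5 and 62.1, and at 26 d 159.7 and 270.1 against 111 and 77.2. Of the 8 samples of anac090, 7 exceeded every wild-type sample of their age. The rise was 1.21 (SE 0.20, adjusted p = 1.3e-06 in edgeR's quasi-likelihood test) and the changes at single ages lay between 0.82 and 1.43.

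ANAC081, ANAC001, ANAC041 and ANAC021 rose by smaller amounts. ANAC081 (ATAF2), of the stress-related SNAC-A clade, had 1098 and 1212 normalised counts in anac090 at 14 d against 604 and 568 in wild type, and 2571 and 2128 against 1614 and 2757 at 26 d, where the groups overlapped. Its rise over the ages was 0.72 (SE 0.17, adjusted p = 0.0057 in edgeR's quasi-likelihood test). ANAC001 had 264 and 193 against 109.8 and 89.8 at 14 d and likewise overlapped wild type at 26 d, with a rise of 0.71 (SE 0.16, adjusted p = 0.0016).

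In ANAC041 and ANAC021 the difference between the later and the earlier ages was not called (0.45 and 0.46, both with adjusted p = 0.999). ANAC041 had 1044 and 1568 normalised counts in anac090 against 699 and 664 at 22 d, overlapped wild type of letter C at no age, and rose by 0.69 over the ages (SE 0.15, adjusted p = 0.0017 in edgeR's quasi-likelihood test). ANAC021, which acts in auxin signalling during lateral root growth, had 2052 and 2392 against 1299 and 1139 at 22 d. It overlapped wild type at 14 and 18 d and rose by 0.54 (SE 0.14, adjusted p = 0.014). With TMM scaling ANAC081 (0.46), ANAC001 (0.44) and ANAC021 (0.26) were not called. With DESeq2 ANAC081 (0.46) and ANAC021 (0.25) were not called either, and the call was lost for ANAC021 without each of 8 of the 16 samples and for ANAC081 without wild type C1 of 26 d (0.64). ANAC041 was not called with DESeq2 (0.42) or without anac090 C2 of 26 d (0.56).

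ANAC045 was the gene called lower. Together with ANAC086 it directs the loss of the nucleus in maturing sieve elements of the phloem. At 14 d it had 45.0 and 54.7 normalised counts in anac090 against 44.6 and 46.7 in wild type, and at 18 d 3.69 and 5.18 against 32.0 and 27.4. At 22 d the values were 6.11 and 3.72 against 14.4 and 8.54, and at 26 d 3.63 and 9.83 against 8.00 and 9.86. The groups overlapped at 14 and 26 d.

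Over the ages ANAC045 changed by -1.003 (SE 0.28, adjusted p = 0.025 in edgeR's quasi-likelihood test), and at 18 d by -2.57 (SE 0.65, adjusted p = 0.016). The 2 anac090 samples of 18 d held 1 and 5 raw counts, at the level of the negative probes, so the size of this fall is a rough value. The call at 18 d was also lost with DESeq2 (-2.80), with ages fitted separately (-2.57) and without UBQ10 (-2.36). The call over the ages was lost with 4 alternatives, among them the geometric mean of the references (-0.78) and all wild type (-0.70), and without each of 9 of the 16 samples. The summed level of the phloem genes ANAC045 and ANAC086 ran from 7.45 to 78.7 normalised counts in anac090 and from 10.1 to 67.2 in wild type. That of the 5 xylem genes ran from 295 to 1086 in anac090 and from 336 to 646 in wild type, and none of the 4 tested was called. The part of vascular cells in the results was not tested.

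Single ages, each with 2 samples against 2, gave 0 to 4 calls. At 14 d 4 genes rose (8.7%, with 0.0% lower and 1.51% called over all lines). ANAC042 rose by 2.46 (adjusted p = 0.044), ANAC004 by 2.42 (adjusted p = 0.019), ANAC016 by 2.10 (adjusted p = 0.0092) and ANAC001 by 1.20 (adjusted p = 0.018) in edgeR's quasi-likelihood test. ANAC004 had 161 and 127 normalised counts in anac090 against 30.6 and 23.3 in wild type. It overlapped wild type again at 22 and 26 d and was not called over the ages (0.81, adjusted p = 0.415).

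The calls of 14 d ended when all wild type was used (0 calls, 7 genes at an unadjusted p under 0.05, a share not counted over all lines). In ANAC004, for example, wild type of the other letters reached 151, and in ANAC042 323. They also ended (0 calls) without wild type C1, without wild type C2 or without anac090 C1 of that age. The wild-type samples of letter C gave the lowest value of all 10 wild-type samples of 14 d for ANAC042 and ANAC004, as they did for ANAC090.

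At 18 d ANAC016 rose by 2.64 (SE 0.50, adjusted p = 6.0e-04) and ANAC045 fell, which makes 2.17% higher and 2.17% lower against 0.177% over all lines. The call of ANAC016 ended without wild type C2 of 18 d (2.42, adjusted p = 0.221), and that of ANAC045 without any one of the 4 samples of that age. At 22 d edgeR's quasi-likelihood test called no gene (0.0% in both directions, 0.0887% over all lines). There 15 genes had an unadjusted p under 0.05, 14 of them higher, a share not counted over all lines. DESeq2 and limma on the authors' log2 values called 0 as well. Against all wild type of 22 d 7 genes were called, all higher, with 23 of 2256 pairs called over all lines in that comparison. At 26 d ANAC047 rose by 2.54 (SE 0.58, adjusted p = 0.032), which is 2.17% of the 46 genes with 0.0% lower and 0.222% over all lines. That call ended without anac090 C2, without wild type C1 or without wild type C2 of 26 d.

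More genes had groups that did not overlap than passed the test at a single age. At 14 d, 21 of the 46 genes (45.7%) had both anac090 samples beyond both wild-type samples of the letter, 18 of them above. The share over all pairs of line and gene with 2 samples a side was 35.4% at that age. The same held for 24 genes at 18 d (52.2%, 20 above, 33.0% over all lines), 27 genes at 22 d (58.7%, 23 above, 25.7% over all lines) and 19 genes at 26 d (41.3%, 16 above, 27.8% over all lines). Set against all wild type of the age, both anac090 samples lay beyond every wild-type sample in 3 genes at 14 d (6.52%, 4.6% over all lines) and in 14 genes at 18 d (30.4%, 4.95% over all lines). This count was 12 at 22 d (26.1%, 3.39% over all lines) and 5 at 26 d (10.9%, 5.43% over all lines). Of these, 1 gene at 18 d and 2 at 22 d lay below and the rest above.

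At 26 d the samples C1 and C2 of anac090 stood apart in several genes that promote senescence. ANAC019 had 1202 and 4566 normalised counts, ANAC087 846 and 2138, ANAC055 265 and 1499, and ANAC092 1124 and 3271. Wild type C1 and C2 had 770.5 and 1549, 183 and 815, 459.5 and 503, and 1489.5 and 1592 in the same genes. These 4 were chosen after their values were seen, and none of them was called at 26 d. The gap was not confined to such genes, as the values of ANAC047 and AT3G12910 above show. All NAC genes summed to 61756 normalised counts in anac090 C1 and 83064 in C2 at 26 d, against 54326 and 61231 in wild type C1 and C2.

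No gene passed the test of a change with age, the later pair of ages less the earlier pair (0.0% in anac090 and 0.0% over all lines by edgeR's quasi-likelihood test). An unadjusted p under 0.05 was reached by 9 genes, a share not counted over all lines. DESeq2 called 1, ANAC104, with a difference of 1.27, and limma called 0. ANAC092, the central promoter of senescence, was near the wild-type level over the ages (0.10, SE 0.34, adjusted p = 0.992) and overlapped wild type at each age. Its sign turned with TMM scaling (-0.18) and with DESeq2 (-0.19).

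**Figure D4:**
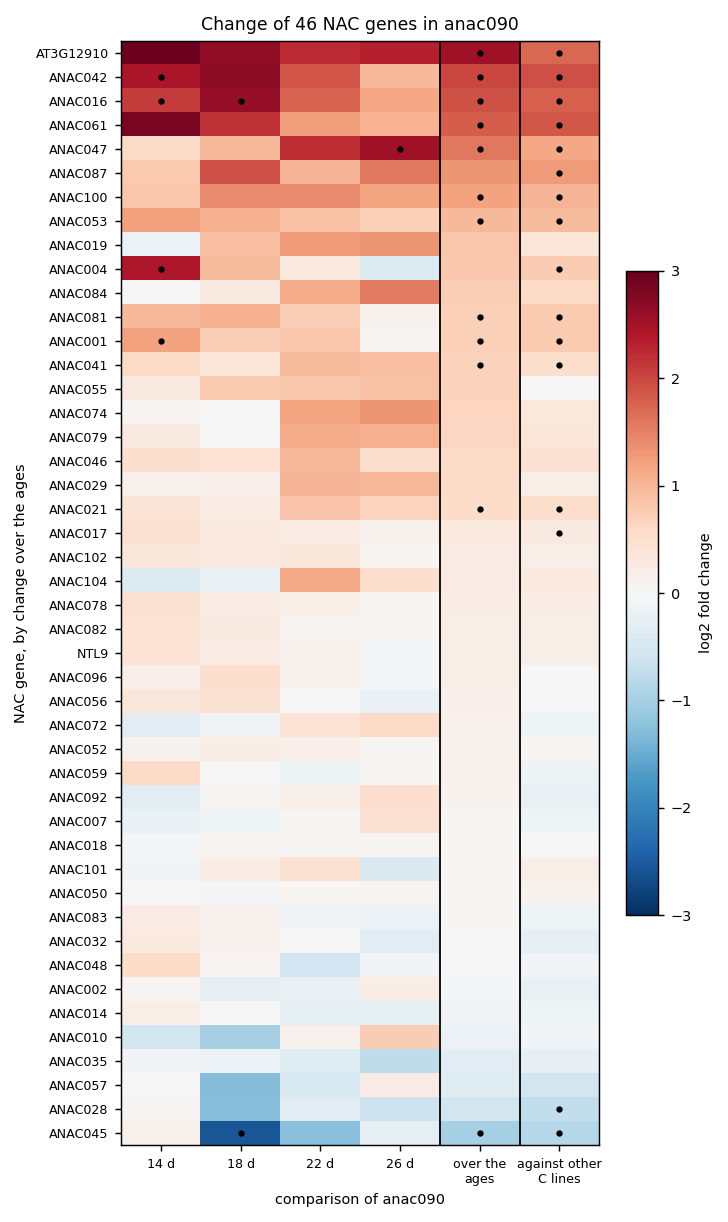
Log2 fold change (colour, anac090 over wild type of letter C) of the 46 tested genes (y axis, sorted by the change over the ages) at each age, over the ages, and against the other lines of letter C (x axis), with dots for calls. AT3G12910, ANAC042, ANAC016 and ANAC061 are red in every column, and the calls are 4, 2, 0 and 1 at the single ages, 12 over the ages and 16 in the last column.

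The comparison with the 7 other insertion lines of letter C took no wild-type sample into the change, although the spread came from all samples. These lines were merged into 1 group per age, and for each gene the line named after it was left out. In edgeR's quasi-likelihood test, 14 genes were higher in anac090 (30.4%) and 2 lower (4.35%), against 2.22% of the pairs when each line was set against the others of its letter. No other line had more than 4 calls in that comparison. The split was 11 higher and 8 lower with TMM, 11 and 5 with DESeq2, and 21 and 0 with the geometric mean of the references or without UBQ10. Differences among the 7 lines do not enter the spread of this test.

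All 12 genes called against wild type were among the 16. ANAC016 was higher by 1.79 (SE 0.18, adjusted p = 5.2e-21), ANAC042 by 1.92 (SE 0.25, adjusted p = 1.1e-13) and ANAC061 by 1.85 (SE 0.30, adjusted p = 4.6e-09) in edgeR's quasi-likelihood test. AT3G12910 was higher by 1.73 and ANAC047 by 1.17. The 4 further calls were ANAC087 (1.28, adjusted p = 4.9e-04), which promotes senescence and cell death, ANAC004 (0.76, adjusted p = 0.031), ANAC017 (0.28, adjusted p = 0.031) and ANAC028, which was lower (-0.75, adjusted p = 0.027). ANAC090 differed from its level in these lines by -1.64 (SE 0.26, adjusted p = 5.1e-08).

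**Figure D5:**
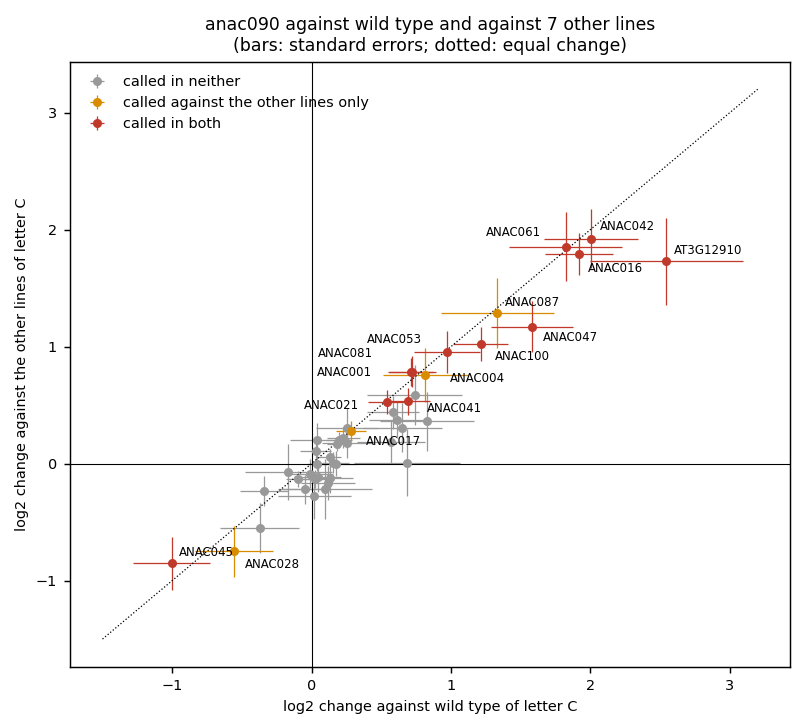
Log2 change of the 46 genes over the ages in anac090 against wild type of letter C (x axis) and against the 7 other lines of letter C (y axis), with standard errors as bars and equal change as a dotted line. Both comparisons use the same 8 samples of anac090, and the 12 genes called in both lie on the same side of 0 in each, AT3G12910 with 2.54 and 1.73.

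Across the 49 lines, of which 48 are compared for each gene, anac090 had the highest change over the ages in all 11 genes called higher and the lowest in ANAC045. The next line had 1.16 for AT3G12910, 0.62 for ANAC042, 1.06 for ANAC016 and 0.75 for ANAC061. For ANAC100 the next line was the one labelled anac017, with 0.84. ANAC016 and ANAC100 were each called higher in 1 other line as well. The called genes were chosen by these same changes, so their rank is a description and not a test. Among genes not called over the ages, anac090 also had the highest change in some, such as ANAC087 (1.33) and NTL9 (0.19). The median change of its tested genes was the highest of the lines as well (0.24, next 0.13 in anac076). ANAC090 in turn was called in none of the other 48 lines by edgeR's quasi-likelihood test, with changes between -0.47 and 0.69 and a smallest adjusted p of 0.693.

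The study groups anac090 with anac017 and anac082, so the changes over the ages were set against those of these lines, each relative to wild type of its own letter. The targeted gene was not lower in either: ANAC017 was 1.37 higher in the line labelled anac017 (SE 0.11, adjusted p = 1.4e-27), and ANAC082 changed by -0.01 in the line labelled anac082 (SE 0.09, adjusted p = 0.950). ANAC017, a membrane-bound factor of signalling from mitochondria, and ANAC082, a mediator of the response to ribosome stress, were not called in anac090 (0.28, adjusted p = 0.437, and 0.20). Both were called higher with the geometric mean of the references (0.49 and 0.42) and without UBQ10 (0.52 and 0.45), and ANAC017 also against all wild type (0.30, adjusted p = 0.022). The sign for ANAC082 turned with TMM scaling (-0.07) and with DESeq2 (-0.08).

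Relative to the line labelled anac017, 9 of 45 genes were higher in anac090 (20.0%) and 1 was lower (2.22%). The difference was 3.19 for AT3G12910 (adjusted p = 4.3e-04), 1.72 for ANAC042 (adjusted p = 0.0045), 1.35 for ANAC016 (adjusted p = 0.0017) and 1.09 for ANAC047 (adjusted p = 0.043) in edgeR's quasi-likelihood test. ANAC053, ANAC041, ANAC001, ANAC081 and ANAC021 were higher by 0.58 to 0.88, and ANAC082 differed by -0.67 (adjusted p = 2.9e-05). Against wild type of its own letter, ANAC082 changed by 0.87 in the line labelled anac017 and by 0.20 in anac090. ANAC061 (1.08) and ANAC100 (0.37) were not among the called differences. With all wild type in place of each letter's own, ANAC016 (0.49, adjusted p = 0.155), ANAC042 (0.88, adjusted p = 0.058), ANAC047 (0.74, adjusted p = 0.063), ANAC053 (0.43) and ANAC081 (0.46) were not called. ANAC047 also lost the call with limma and without each of 8 of the 16 samples, and ANAC053 without each of 10. The count was 6 without wild type C2 of 14 d, wild type C2 of 18 d or anac090 C2 of 18 d.

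Relative to the line labelled anac082, 9 of 45 genes were higher in anac090 (20.0%) and none was lower (0.0%). These were AT3G12910 (2.41, adjusted p = 0.0074), ANAC042 (1.73, adjusted p = 0.0045), ANAC061 (1.57, adjusted p = 0.037), ANAC016 (1.53, adjusted p = 3.9e-04) and ANAC047 (1.22, adjusted p = 0.022) in edgeR's quasi-likelihood test, with ANAC100, ANAC041, ANAC001 and ANAC021 at 0.51 to 0.97. Most of the leading differences ended with all wild type in place of each letter's own: AT3G12910 was at 0.90 (adjusted p = 0.177), ANAC042 at 0.89 (adjusted p = 0.058), ANAC061 at 0.83 (adjusted p = 0.123), ANAC016 at 0.67 (adjusted p = 0.058) and ANAC001 at 0.35. ANAC061 was also lost without each of 7 of the 16 samples. The count was 5 without wild type C1 of 26 d, anac090 C1 of 14 d or anac090 C2 of 18 d.

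The lists of NAC genes by known role gave the following counts over the ages, chosen with earlier results of these data known. Of 13 genes that promote senescence, ANAC016 and ANAC053 were called higher and none lower, with a median change of 0.57 against 0.24 for all 46 genes, of which 11 (23.9%) were called higher. Of the 2 that delay it, ANAC042 was called and ANAC083 was not (0.03). In the SNAC-A clade 1 of 7 was called, ANAC081, and the median was 0.25. In the clade of ANAC092 1 of 4 was called, ANAC100, and the median was 0.37. Of 6 membrane-tethered factors ANAC016 and ANAC053 were called, and the median was 0.26.

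Most genes of the panel rise as wild-type leaves age, the 11 that rose in anac090 among them. In wild type of the other letters A, B and D, which shares no sample with the comparison above, all 11 were called higher at 26 d than at 14 d by edgeR's quasi-likelihood test, but so were 37 of all 46 genes (80.4%). The median change with age was 1.32 for the 11 genes and 1.048 for all 46. ANAC045, lower in anac090, changed by -3.05 with age in wild type. Across the 46 genes the change in anac090 over the ages and the change with age in wild type had Pearson's r of 0.68 and Spearman's rho of 0.66, given as a description, since genes of 1 sample share its scale and are not independent replicates. With the change of anac090 at 14 d alone, r was 0.35. The change with age in wild type was taken on the main scale alone, against which TUB2 fell with age in wild type as well.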

How the data were processed

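The authors deposited raw NanoString counts per probe for 434 leaf samples (67 probes: 49 NAC genes, 4 reference genes, 8 negative and 6 positive controls). Per the labels' protocols, 100 ng of total RNA entered each reaction; which software counted the probes was not stated in the labels. The authors also deposited log2 values, which equalled log2 of the count less a background (median 5.21 counts) times a factor inverse to the reference mean. Groups came from the sample titles. The 53 gene probes matched RefSeq locus names of TAIR10.1, used for names alone; no coordinates or sequences are given.

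All samples entered 1 quasi-likelihood model of edgeR 4.0.16 under R 4.3.3, with a mean per genotype, letter and age and the reference mean as offset. The common dispersion was 0.0899. Genes with a mean raw count above 12.6 (negative probes plus 2 SD) were tested, 47 in all. Benjamini-Hochberg adjustment covered the 2256 pairs of line and other gene per comparison, the targeted genes of all lines, or the genes of both line differences; the threshold was 0.05. The methods were tested on simulated data. For edgeR these held no difference between letters, no deviation shared by samples of the same number and no error in the reference scale. Nothing about such effects follows from that test. Samples of anac090 and wild type of letter C with the same number did not deviate together (correlations of 0.22, -0.22, 0.18 and 0.04 by age). No block was therefore used, though the other lines were not checked for this. With a replicate block, calls over all lines went from 22 to 33 over the ages and from 34 to 61 at 14 d.

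Alternatives were TMM, 2 other reference scales, DESeq2 1.42.0, limma 3.58.1 on the deposited log2 values, other filters, a replicate block, ages fitted separately, the 16 samples alone, all wild type, and each sample left out. DESeq2 dispersions were fitted within each letter, a choice made after 1 fit of all 216 groups gave void values. The members and lists were chosen with earlier results of these data known. Named are all genes called over the ages or at an age, ANAC090, ANAC061, ANAC017, ANAC082 and ANAC092, plus those said to be chosen otherwise.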

Additional observations from a re-analysis of the deposited data

Results flagged for a closer look

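In 68 groups of wild-type samples (17 genes at 4 ages), 5 values stood apart from the rest of their group by Dixon's criterion, which chance meets in about 1 of 20 groups. In wild type A2 of 22 d AT3G12910 had 306.35 normalised counts, with the nearest sample at 100.13, ANAC047 had 857.51 with the nearest at 344.24, and ANAC041 had 1081.3 with the nearest at 739.95. ANAC081 had 1997.3 in wild type B1 of 14 d, with the nearest at 981.59. ANAC061 had 365.36 in wild type B2 of 26 d, with the nearest at 161.0. None of these samples carries letter C. All enter the comparison with all wild type, B1 of 14 d and B2 of 26 d also the change with age in wild type, and A2 of 22 d the differences from the lines labelled anac017 and anac082, which carry letter A.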

How the results depend on the processing

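The number of genes called over the ages in anac090 (12) stayed within 9 to 16 with TMM, DESeq2, limma, other filters, a replicate block (14) and all wild type, and was 19 with the geometric mean of the references, without UBQ10 and with the 16 samples alone. Leaving out single samples gave 10 to 13. At 14 d the 4 calls became 2 with DESeq2, TMM or the geometric mean, 1 without UBQ10, 0 against all wild type, 8 with the 16 samples alone, and 0 to 4 without single samples. At 18 d the 2 calls became 7 against all wild type or with the 16 samples, 1 with a filter at a mean of 100 counts or without UBQ10, 4 with the replicate block, and 0 to 2 without single samples. At 22 d the count of 0 became 7 against all wild type, 6 with the 16 samples, 5 with the geometric mean or without UBQ10, and 3 with the replicate block. At 26 d the 1 call became 3 against all wild type, 0 with ages fitted separately or with limma, and 0 to 1 without single samples. Against all wild type, 10, 24, 23 and 23 of 2256 pairs were called over all lines at 14, 18, 22 and 26 d. The main test called 34, 4, 2 and 5 of them. DESeq2 called 1 gene for the change with age. The count against the other lines of letter C stayed within 11 to 21. The differences from the line labelled anac017 ranged from 6 to 11 without single samples, and those from the line labelled anac082 from 5 to 10, with 4 against all wild type and 5 with limma. The causes of these shifts were not tested.

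ANAC090 was called over the ages in every alternative (-2.11 to -1.59; replicate block -1.84). At 14 d it was called against all wild type (-1.21), and single samples left out gave -0.742 to 0.0895. At 18 d it was not called with the geometric mean (-1.52) or without UBQ10 (-1.498), and single samples gave -2.10 to -1.39; at 26 d they gave -3.01 to -1.44. Among single genes over the ages, the sign turned in ANAC082 with TMM (-0.071) and DESeq2 (-0.076), and in ANAC092 with TMM (-0.180), DESeq2 (-0.191) and without single samples (lowest -0.145, highest 0.324). The labels do not say whether the replicate numbers pair the samples. A call lost or gained with the block says nothing of the size of the change, and its cause was not tested. Low counts limit ANAC045, AT3G12910 at 14 and 18 d, and ANAC090 in the line itself.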
